A study of Rattus norvegicus with 6 samples.

Results

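H3K9la, lactylation of lysine 9 on histone H3, was profiled by CUT&Tag in cultured rat tenocytes without added lactate (control) and with 20 mM lactate, in 1 library each. Every peak of these libraries was taken, 61850 from the control list and 46597 from the lactate list, or 108447 of the 315825 peaks in the 6 lists of the series. A peak was called shared when it overlapped a peak of the other H3K9la list by 1 bp or more, and control-only or lactate-only otherwise. Both libraries came from wild-type tendon cells grown in 1640 medium, with 100000 cells and 13 PCR cycles per library. The sources used here do not give the time in lactate, the age of the animals or the number of animals or cultures behind a library. The labelled cell type could not be checked, since peak lists hold no expression values and no annotation of the files' build, rn7, was used. Positions are in rn7, counted from 1, without gene annotation.

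Lactylation adds a lactyl group, derived from lactate, to lysine side chains, and acyltransferases such as p300 can place it. Lysine 9 lies in the tail of H3 that protrudes from the nucleosome, and the same residue can carry acetyl or methyl groups, so the marks compete for it. Tenocytes, the fibroblast-like cells of tendon, deposit its collagen matrix. In CUT&Tag an antibody tethers a transposase to chromatin that carries the mark, and a peak is a stretch where the released fragments pile up above the background. The submitters stated the aim of linking lactylation to the genes it regulates.

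With 1 library a side no difference has a replicate check and no p-value was computed. Intervals are 95% intervals for counting error only, since PCR copies and peaks of one library are not independent measurements. The fold of a peak is the pileup of fragments at its summit over the local background, and its −log10 q is the strength of the call, both as the authors' peak caller wrote them. The genome-wide background recovered from these columns, in fragments per base, was 2.17 in control and 1.88 with lactate. By this measure, taken here as depth, the lactate library was 0.867 times as deep. Numbers of sequenced fragments were not used. Fewer cells carrying the mark and less of the mark per cell cannot be told apart in such libraries.

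Fewer H3K9la peaks were called with lactate, and the lists differed most in number at low fold and at high local background. These traits are linked, since at a given strength of the call a lower fold goes with a higher local background. The log2 ratio of peak numbers, lactate over control, was −0.41 (−0.43 to −0.39) over all peaks. At a fold of at least 4 the lists were of nearly equal length, with 15894 peaks in control and 15772 with lactate, a log2 ratio of −0.011 (−0.043 to 0.021). Below a fold of 3 there were 14973 in control and 5298 with lactate, a log2 ratio of −1.499 (−1.54 to −1.45). Under a fold of 2.5, 3196 control peaks faced 377 lactate peaks in number. At the top, 61 peaks of each list had a fold of at least 8.

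The local background was expressed as a multiple of the library's own genome-wide background, so 1 means that the caller used the genome-wide value. It is inferred from the columns, and if an IgG library entered peak calling it comes partly from that library and not from H3K9la fragments. Its median over peaks was 1.98 in control and 1.66 with lactate. At the genome-wide value itself there were 7145 control and 5314 lactate peaks, a log2 ratio of −0.43 (−0.48 to −0.38), close to that of the whole lists. Above it and under 2 the lactate list was the longer one, with 25664 peaks against 24080. Together these bins held 31225 and 30978 peaks. At 3 or more the order was opposite and wide apart, 15980 in control and 4295 with lactate, a log2 ratio of −1.90 (−1.94 to −1.85). At 5 or more there were 4801 and 382. These are net numbers, binned by each library's own local background, and shared peaks changed bin between the libraries. Of 7202 one-to-one pairs with a local background of 3 or more in control, 4049 were under 3 with lactate. Shared peaks therefore made up 4032 of the excess of control peaks at 3 or more, and condition-only peaks 7653. Among condition-only peaks control exceeded lactate by 5717 at a local background from 1.5 to 3, 15807 against 10090, and by 1963 under 1.5, 16201 against 14238. Control-only peaks were thus most numerous at low local background, while the excess over lactate-only peaks was largest at high local background.

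**Figure D1:**
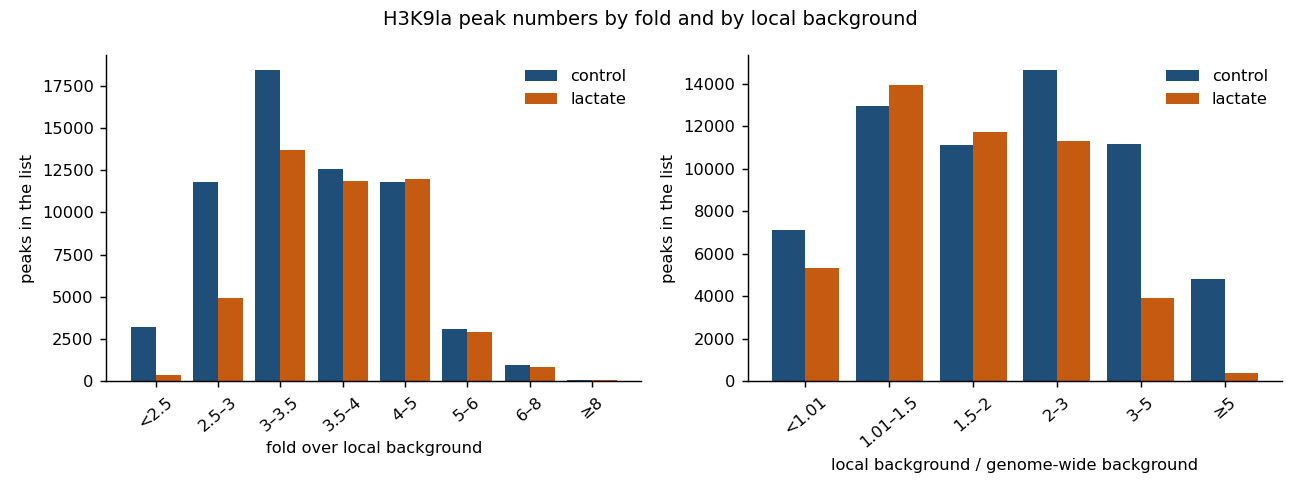
Number of H3K9la peaks in the control (blue) and lactate (orange) lists, on the y axes, by fold over local background (left) and by the local background as a multiple of the genome-wide one (right). Bars of the lists are of similar height at a fold of 4 or more and at a local background from just above 1 to 2, and the lactate bars are far lower under a fold of 3 and at a local background of 3 or more.

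The depth of the libraries moves with this comparison. Control pileups and backgrounds were therefore scaled to the lactate background and both lists were counted at −log10 p of at least 4, which left 53751 control and 44151 lactate peaks, a log2 ratio of −0.28. At a local background of 3 or more the log2 ratio was then −1.84 (−1.89 to −1.79). At the genome-wide value it was −0.086 (−0.14 to −0.029), and above that and under 2 it was 0.26 (0.23 to 0.28), in favour of lactate. At a fold of at least 4, the scaled control list held 13335 peaks and the lactate list 15772, a log2 ratio of 0.24 (0.21 to 0.28). Scaling cannot bring in regions that the authors' threshold had left out. With 1 library a side, lactate and the enrichment of a library cannot be told apart.

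Wide peaks were also fewer with lactate, and narrow ones were not. Peaks narrower than 350 bp were as many with lactate (10314) as in control (10419), a log2 ratio of −0.015 (−0.054 to 0.025). From 600 to 800 bp there were 6839 lactate and 10865 control peaks. From 1000 to 1500 bp there were 1450 and 4170, and at 1500 bp or more 78 and 582, a log2 ratio of −2.90 (−3.24 to −2.56). With control scaled to the lactate background at −log10 p of at least 4, 9137 lactate and 7426 control peaks were narrower than 350 bp. That is a log2 ratio of 0.30 (0.25 to 0.34). Widths stayed as deposited, so this setting could only remove peaks from a width range. At 1500 bp or more it removed none, so the numbers there do not test the part of depth. The narrowest peak was 291 bp wide in control and 286 bp with lactate, so both lists start from about the same minimum.

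Shared peaks were wider, stronger and of higher local background than peaks of 1 list. Of the control peaks, 21241 were shared and 40609 (65.7%) control-only. Of the lactate peaks, 21321 were shared and 25276 (54.2%) lactate-only. These shares are the background for every count of condition-only peaks that follows. The shared numbers differ because 183 control peaks each faced 2 lactate peaks and 103 lactate peaks each faced 2 control peaks. Control-only peaks covered 20.4 Mb and shared control peaks 15.0 Mb. Lactate-only peaks covered 11.2 Mb and shared lactate peaks 12.3 Mb. Bases under a peak in both lists came to 9.44 Mb, 26.6% of the control bases and 40.03% of the lactate bases.

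Median width was 641 bp for shared control peaks, 448 bp for control-only peaks, 523 bp for shared lactate peaks and 405 bp for lactate-only peaks. The classes overlapped broadly, since the 90th percentile of the control-only widths, 759 bp, lay above the median of the shared ones. A width of 1000 bp or more was found for 16.4% of the shared control peaks, 3.13% of the control-only, 6.28% of the shared lactate and 0.752% of the lactate-only peaks. Median fold was 3.76 and 3.33 for shared and control-only peaks of control, and 3.86 and 3.55 for shared and lactate-only peaks of the lactate list. In the lactate list this order did not hold among strong peaks, where at −log10 q of at least 10 in both lists the medians were 6.05 for shared and 6.21 for lactate-only. Median −log10 q was 5.49 and 3.21 in control and 4.13 and 2.74 with lactate. Lactate-only peaks thus had a higher median fold than control-only peaks but a lower median −log10 q, with a median summit pileup of 13 fragments against 16. Over each library's genome-wide background, the median pileups were closer, 6.92 for lactate-only and 7.38 for control-only peaks.

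**Figure D2:**
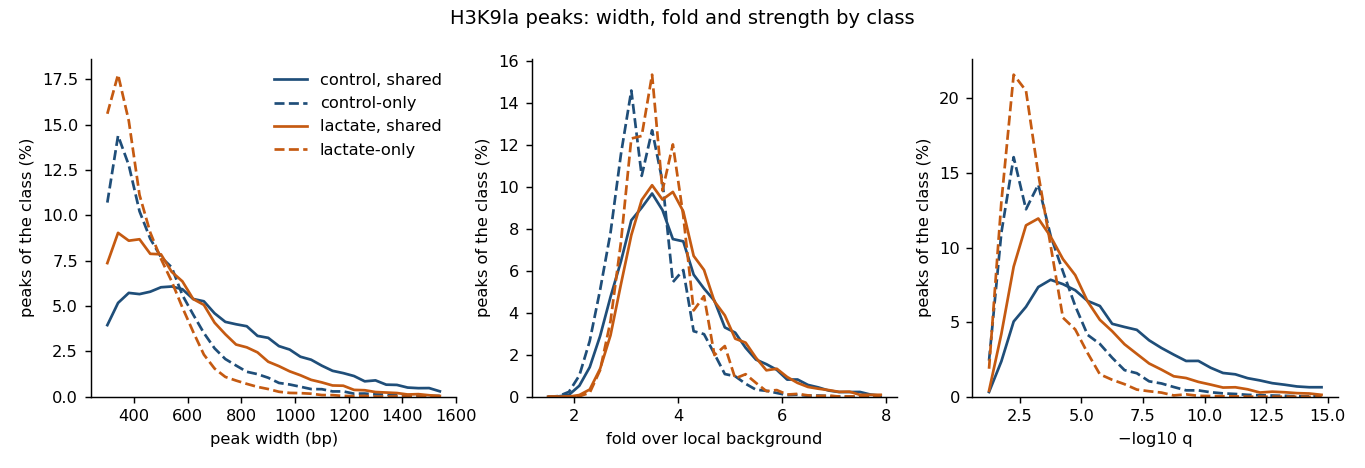
Share of the peaks of each class (y axes) by width in bp, fold over local background and −log10 q (x axes), for control (blue) and lactate (orange), shared (solid) and condition-only (dashed). Shared peaks reach further right in width and −log10 q, and the jagged fold curves come from pileups being whole numbers; values beyond the axes are not drawn.

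The share of peaks with a partner was higher the stronger the call. In the weakest 10% of the control list (−log10 q from 1.301 to 2.02), 9.52% (8.81 to 10.3) of the peaks were shared, and in the strongest 10% (from 8.39) 80.3% (79.3 to 81.3). In the lactate list the shares ran from 20.6% (19.4 to 21.7) to 86.8% (85.8 to 87.8). At similar strength the share also differed with the local background. Among lactate peaks of −log10 q from 3 to 4, 62.5% (60.9 to 64.1) were shared where the local background was at least 2, and 34.4% (33.4 to 35.5) where it was lower. For control peaks of that strength the shares were 30.1% (29.0 to 31.3) and 19.5% (18.7 to 20.4). Peaks of the same strength with a fold of at least 4 were shared less often, 26.5% (25.1 to 27.9) against 51.7% (50.6 to 52.9) in the lactate list. At a given strength a higher fold goes with a lower local background, so this is not a separate trait. Over all strengths, the share of lactate peaks with a partner did not rise steadily with fold. It was 56.5% under a fold of 2.5 and 35.0% from 3 to 3.5. From 4 to 5 it was 53.6%, and at 8 or more 95.1%. Of the lactate peaks sitting at the genome-wide background, 14.4% (13.5 to 15.4) had a control partner, against 86.4% (82.6 to 89.5) at 5 times that background or more.

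**Figure D3:**
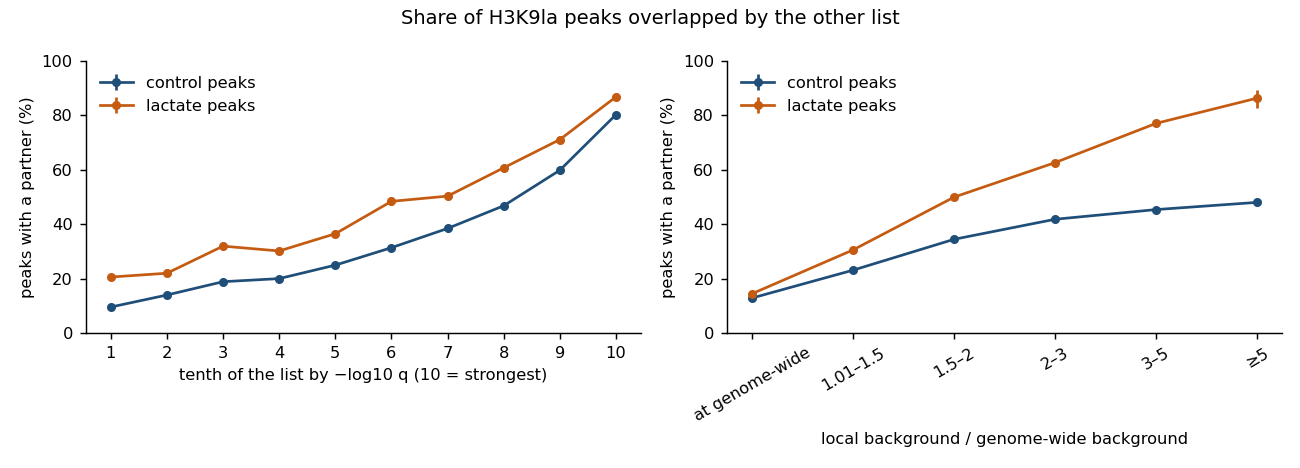
Percentage of H3K9la peaks that overlap a peak of the other list (y axes), by steps of 10% of the list in −log10 q (left) and by local background as a multiple of the genome-wide one (right); points are shares and bars 95% Wilson intervals, mostly smaller than the points. Lactate peaks (orange) go from 20.6% to 86.8% with strength and from 14.4% to 86.4% with local background, and control peaks (blue) from 9.52% to 80.3% and from 12.8% to 48.0%.

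Summits stood closer to the middle of shared peaks. The median distance of the summit from the peak's start was 302 bp in shared and 213 bp in control-only peaks, and 246 bp in shared and 189 bp in lactate-only peaks, much as the widths differ. Divided by the width, the median position was between 0.474 and 0.484 in all 4 classes, close to the centre at 0.5. The spread around it differed. The summit lay in the middle 20% of the peak in 29.2% of the shared control, 24.0% of the control-only, 26.5% of the shared lactate and 23.4% of the lactate-only peaks. It lay in the first 10% of the width in 4.56%, 8.20%, 6.35% and 10.2%, and in the last 10% in 3.46%, 6.19%, 4.48% and 6.72%. The start of the peak held more summits than the end in each class. Among control peaks of −log10 q of at least 10 in both lists, summits of shared peaks were no more central, at 0.135 of the width from the centre against 0.131.

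In 20857 pairs 1 control peak faced just 1 lactate peak. The shorter peak was overlapped over a median of 97.3% of its length, and the lactate peak lay entirely within the control peak in 31.7% of the pairs, the reverse in 11.7%. The lactate peak was the narrower one in 65.6% of the pairs, with a median log2 ratio of widths of −0.24. Summits were 140 bp apart in the median, 8 bp or less in the closest 10% of pairs and 444 bp or more in the farthest 10%. They lay within 50 bp of each other in 25.9% and within 200 bp in 63.6%. The median signed shift was 0 bp.

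At these pairs the fold was almost the same in both libraries while its numerator and its denominator were both lower with lactate. The summit pileup over the genome-wide background had a median of 10.6 in control and 9.58 with lactate, lower with lactate in 67.3% of the pairs, with a median log2 ratio of −0.21 (quartiles −0.51 and 0.11). The local background over the genome-wide one had a median of 2.38 and 1.97, lower in 77.5% of the pairs, with a median log2 ratio of −0.30 (−0.58 and −0.017). The fold divides the unscaled pileup by the unscaled local background after 1 is added to each. It had a median of 3.77 in control and 3.87 with lactate, with a median log2 ratio of 0.043 (−0.17 and 0.25). With pairs limited to a fold of at least 4 in both lists, that median turned to −0.0091. At the 668 pairs with −log10 q of at least 10 in both lists the median log2 ratios were −0.080 for pileup, −0.23 for local background and 0.082 for fold. A fold at least 1.5 times higher with lactate was found at 855 pairs (4.1%) and one at least 1.5 times lower at 479 (2.3%). Among the 668 strong pairs the numbers were 7 and 0. The sign of the fold ratio followed the list by which pairs were binned. From the weakest to the strongest pairs by control −log10 q, its median log2 value ran from 0.27 to −0.17. By lactate −log10 q it ran from −0.14 to 0.21. Values at pairs chosen by −log10 q therefore depend on that choice. Across the 20857 pairs log2 local backgrounds had a Pearson r of 0.89, log2 pileups 0.71, log2 folds 0.57 and log2 widths 0.33. Pairs share the genome sequence and its mappability, so these values are a description.

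The 5 strongest pairs had a higher summit pileup over background with lactate in 4 cases. They were chosen by the lower −log10 q of the pair. The first, on chromosome 1 from 154403659 to 154404083 in control, had a −log10 q of 129 in control and 188 with lactate, and its summits lay 1 bp apart. On chromosome 1 from 205978630 to 205978974 the pileup was 65.5 times the genome-wide background in control and 166.5 times with lactate, and −log10 q was 75.9 and 209.8, the highest of the lactate list. That region had a peak in H4K16la control and in no other library of the remaining marks. On chromosome 3 from 2252190 to 2253244 the local background alone was 16.7 times the genome-wide one in control and 27.1 times with lactate. The pair on chromosome 1 from 209640248 to 209641544 was nearly even, with pileups of 82.1 and 85.7 times the background. On chromosome 3 from 2221271 to 2223078 the pileup was 53.1 and 50.0 times the background, the one pair of these that was lower with lactate. No filter for repeated or artefact-prone regions was applied to these lists here.

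Strong pairs that differed most in fold were led by a region on chromosome 16. There the control peak from 20232455 to 20232878 had a fold of 7.26 and the lactate peak from 20232336 to 20233084 one of 13.3, with pileups of 22 and 52 fragments. Its log2 ratio of fold was 0.88. On chromosome 18 the control peak from 30085040 to 30085885 had a fold of 5.33 and its lactate partner 9.06. On chromosome 8 from 97350415 to 97351736 the fold was 4.26 and 6.98, but the pileup over background was about the same, 22.6 and 24.5, and the local background was lower with lactate. On chromosome 14 from 17351604 to 17352164 the fold was 3.86 and 5.99 although the pileup over background was lower with lactate, 20.8 and 17.0. A higher fold came with a larger pileup in the first 2 regions and with a lower local background in the last 3.

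In the other direction chromosome 12 stood out, with the control peak from 11665049 to 11666007. Its pileup was 92.7 times the genome-wide background in control and 18.1 times with lactate, and its local background 13.1 and 3.36 times, so the fold moved only from 6.86 to 4.78. Its −log10 q was 90.8 in control and 10.2 with lactate. H4K8la control had a peak there and the other 3 libraries of the remaining marks did not. The other pairs were milder. On chromosome 1 from 67524659 to 67525753 the fold was 7.04 and 4.96, on chromosome 9 from 6687943 to 6688509 it was 9.16 and 6.57, and on chromosome 17 from 24038695 to 24039619 it was 8.99 and 6.49. All 4 libraries of H4K8la and H4K16la had peaks at these 3 regions. Pairs were ranked on the fold ratio itself, so these values are a description.

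Strong peaks without a partner were rare in both lists, and rarer with lactate at the same −log10 q. At −log10 q of at least 10, 533 of 3735 control peaks (14.3%) were control-only and 45 of 1124 lactate peaks (4%) lactate-only. Control-only ones had a median fold of 4.88 at a local background of 3.09 times the genome-wide background. Lactate-only ones had a median fold of 6.67 at 1.94 times. Of the 45, 24 lay within 10000 bp of a control peak and 7 within 1000 bp. Of the 533, 249 and 22 lay so close to a lactate peak. They were spread over 21 chromosomes in control and 17 with lactate. At a fold of 4 or more, the shares of peaks with a partner were closer between the lists. From 4 to 5 they were 47.3% in control and 53.6% with lactate, and from 5 to 6 68.5% and 72.1%. At 8 or more both were 95.1%. Lactate peaks were matched against the longer list.

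Some condition-only peaks had no counterpart within 10000 bp. The strongest in control was on chromosome 12 from 11721517 to 11722310, where 33 fragments stood on a local background 1.22 times the genome-wide one, and the lactate list had nothing for 16447 bp. It begins 55509 bp after the end of the chromosome 12 peak whose pileup was so much lower with lactate. The next were on chromosome 7 from 113662695 to 113663208 (fold 4.90, −log10 q 19.9), chromosome 17 from 83692712 to 83693126 (5.07, 19.4), chromosome 2 from 76460208 to 76460924 (4.54, 19.1) and chromosome 4 from 79688274 to 79688861 (6.93, 17.9). These had 39 to 66 fragments at the summit and local backgrounds of 2.20 to 6.34. Among lactate-only peaks the strongest isolated one, on chromosome 14 from 46237362 to 46237738, had 27 fragments on the bare genome-wide background, and its nearest neighbour within the lactate list was 1350635 bp away. It was followed by chromosome 5 from 119779491 to 119779864 (fold 9.26, 28 fragments), chromosome 17 from 23143558 to 23144073 (7.47, 35), chromosome 15 from 79876763 to 79877086 (6.89, 33) and chromosome 8 from 84860181 to 84860540 (6.49, 30). Over the genome-wide background, which takes the depth into account, the pileups were 14.4 to 18.6 for the 5 lactate-only and 15.2 to 30.5 for the 5 control-only peaks, so the ranges overlapped. The lactate-only peaks were between 324 and 516 bp wide, and the control-only ones between 415 and 794 bp. All 4 libraries of H4K8la and H4K16la had a peak at the control-only peaks on chromosomes 12 and 4 and at the lactate-only peak on chromosome 14. The other control-only peaks and the lactate-only peak on chromosome 8 met peaks of both conditions. On chromosome 17 the lactate-only peak met H4K8la control alone, on chromosome 15 H4K16la lactate alone, and on chromosome 5 no library.

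Most condition-only peaks lay apart from the other list rather than beside it. A lactate peak was found within 1000 bp of 7.07% of the control-only peaks and within 10000 bp of 46.1%, and the median distance was 11147 bp. A control peak was within 1000 bp of 9.42% of the lactate-only peaks and within 10000 bp of 49.4%, with a median of 10174 bp. Beyond 100000 bp lay 788 control-only (1.94%) and 1199 lactate-only peaks (4.74%), although the control list is the longer one. The distance differed with the local background. Control-only peaks with a local background of 3 or more were 6325 bp from the nearest lactate peak in the median, and those under 1.5 were 16231 bp away. For lactate-only peaks the medians were 2645 and 14648 bp.

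A run is a row of peaks of 1 list with no peak of the other list between its ends. Most runs were single peaks, 54.4% of 22034 in control and 70.9% of 17536 with lactate. The longest control run held 14 peaks within 162 kb on chromosome 5 from 140897326 to 141059687, the next 13 within 105 kb on chromosome 7 from 69647198 to 69752653 and the third 12 within 124 kb on chromosome 19 from 23342601 to 23467006. Their median local backgrounds were 2.78, 3.65 and 5.12 times the genome-wide one. The longest lactate runs held 12 peaks over 1244 kb on chromosome 5 from 163186115 to 164430535, 11 over 1260 kb on chromosome 6 from 66423640 to 67683235 and 11 over 10071 kb on chromosome 15 from 64431685 to 74502742. Their median local background was 1, and the highest −log10 q in them was 6.02, 9.33 and 6.70. Runs of 5 or more peaks numbered 994 in control and 238 with lactate, and the control list is the longer one. The 3 longest runs were picked for their length and do not stand for the others. In control, a peak after a control-only peak was control-only in 66.2% of cases and after a shared peak in 64.7%. With lactate these values were 57.9% and 49.9%, so lactate-only peaks followed each other more than they followed shared ones.

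The widest peaks were shared ones. In control it was 2914 bp wide, on chromosome X from 13093036 to 13095949, and with lactate 2841 bp, on chromosome 1 from 34120345 to 34123185. The widest control-only peak, on chromosome 2 from 59922148 to 59924572, measured 2425 bp with a fold of 2.53, and the widest lactate-only peak, on chromosome 3 from 2152505 to 2154018, measured 1514 bp. No peak faced more than 2 peaks of the other list. The strongest to do so was in control on chromosome 20 from 54415058 to 54417090 and with lactate on chromosome 5 from 7316330 to 7317807.

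Peaks stood closer together in control, the longer list, than with lactate, and the spacing had a step in both. The median gap to the nearest peak of the same list was 8649 bp for shared and 8748 bp for control-only peaks, and 12081 bp for shared and 14277 bp for lactate-only peaks. Lactate-only peaks were therefore more scattered than shared ones, while the control classes differed little. The gap between the lists was smaller with the control list cut to the lactate length. The medians were then 10548 bp for shared control and 10423 bp for control-only peaks. With lactate they were 11952 bp for shared and 14198 bp for lactate-only peaks. A neighbour within 4000 bp was found for 19.6% of the shared control, 21.9% of the control-only, 11.7% of the shared lactate and 10.3% of the lactate-only peaks. The numbers did not fall smoothly with distance. Gaps from 3000 to 4000 bp were found for 2152 control peaks and gaps from 5000 to 6000 bp for 4661. In the lactate list these numbers were 901 and 2636. The median local background of control peaks was 3.19 times the genome-wide one at the shorter gaps and 2.22 at the longer ones, and with lactate 2.21 and 1.79. The part of the caller's background windows in this step was not tested. Lactate peaks outnumbered control peaks at gaps from 20000 to 50000 bp, 11282 to 9540, a log2 ratio of 0.24 (0.20 to 0.28). From 1000 to 4000 bp the log2 ratio was −1.43 (−1.49 to −1.38).

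**Figure D4:**
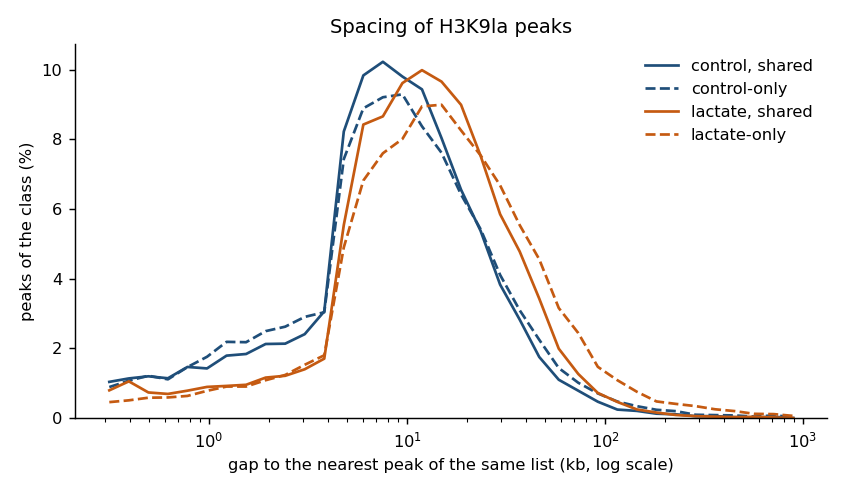
Percentage of the peaks of each class (y axis) by the gap to the nearest peak of the same list in kb (x axis, log scale), for control (blue) and lactate (orange), shared (solid) and condition-only (dashed). All 4 curves step up between 4 and 5 kb, and the lactate curves lie to the right of the control curves, with medians of 12081 and 14277 bp against 8649 and 8748 bp. The control list is the longer one, and the lists are drawn at full length.

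By chromosome the lactate list was shorter on all 20 autosomes to a similar degree, and chromosome X differed. The log2 ratio of peak numbers on autosomes ran from −0.51 on chromosome 19 (−0.61 to −0.40, 1262 against 1794 peaks) to −0.33 on chromosome 8 (−0.40 to −0.26, 2703 against 3395). The intervals of these 2 chromosomes just miss each other. Chromosomes 11 and 17 followed chromosome 19 with −0.48 and −0.45. On chromosome X it was −0.16 (−0.29 to −0.023), 856 against 954 peaks, outside the range of the autosomes, with an interval that overlaps that of chromosome 8. With control scaled to the lactate depth at −log10 p of at least 4, the value for X was 0.017, and with the control list cut to the length of the lactate list 0.48, the highest of the chromosomes named here other than Y in that setting. At a fold of at least 4 in both lists, X was at 0.031 and chromosomes 8 and 17 at 0.082 and 0.028. Chromosome Y had 5 control and 12 lactate peaks, too few to compare (log2 ratio 1.26, −0.18 to 2.71).

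Chromosome X was poor in H3K9la peaks, and few of them were shared. It held 6.26 peaks per Mb in control and 5.62 with lactate, where autosomes held 19.5 to 35.4 and 15.0 to 26.1, per Mb up to the last peak of the chromosome. Chromosome 10 was the densest in control and chromosome 12 with lactate. On X, 22.2% (19.7 to 25.0) of the control peaks and 24.8% (22.0 to 27.8) of the lactate peaks were shared, against 31.0% to 37.8% and 42.6% to 50.6% on single autosomes. Chromosome 17 had the lowest shares among autosomes and chromosome 20 the highest, in both lists. Peaks on X were weaker, with a median −log10 q of 3.09 in control and 2.89 with lactate. Their median local background was low, 1.14 and 1.13 times the genome-wide one. Medians of single autosomes ran from 1.72 to 2.25 in control and from 1.43 to 1.93 with lactate. Within a range of strength the share on X was lower in the lactate list, and less clearly so in control. Local background was not held fixed in this comparison, and in both lists a smaller share of peaks had a partner where it was low. The part of local background or of the number of X copies in the lower share on X was not tested. Of the lactate peaks with −log10 q from 3 to 4, 23.4% (18.3 to 29.4) were shared on X and 43.7% (42.8 to 44.6) on autosomes. From 4 to 6 these shares were 42.5% (34.5 to 51.0) and 63.4% (62.4 to 64.4), and at 10 or more, with 9 peaks on X, the intervals overlapped. In control the shares from 3 to 4 were 14.2% (10.2 to 19.3) and 24.3% (23.6 to 25.0), but the intervals overlapped in the other 4 ranges, as at 4 to 6 with 33.2% (27.4 to 39.6) and 39.2% (38.4 to 39.97).

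**Figure D5:**
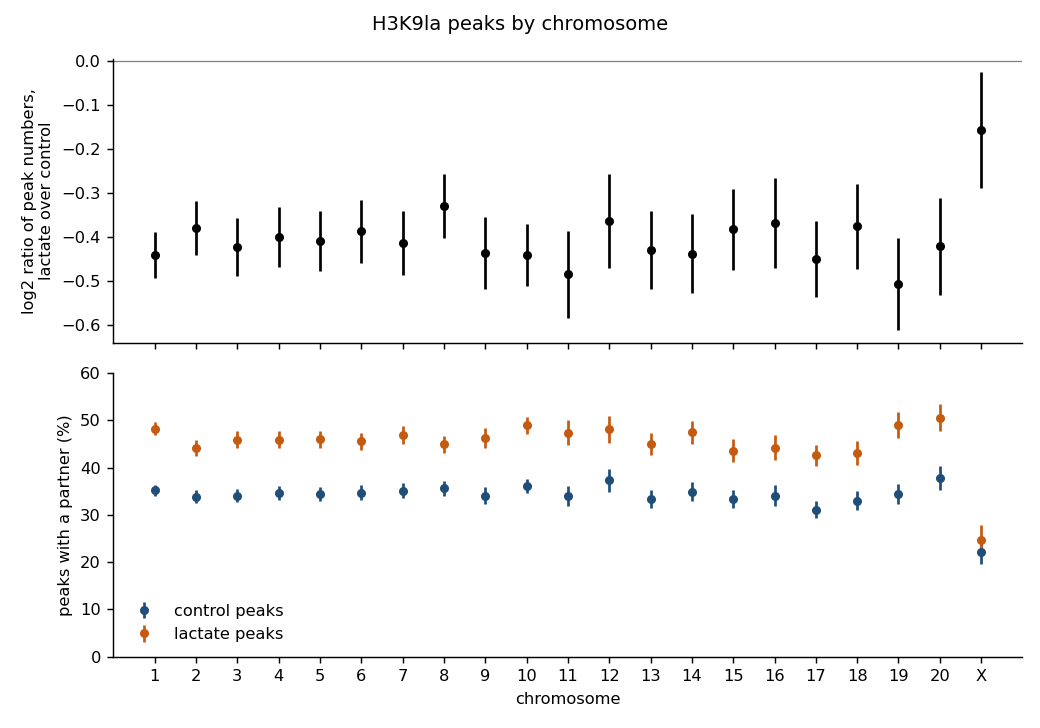
Upper panel, log2 ratio of H3K9la peak numbers, lactate over control (y axis), by chromosome with 95% counting intervals; lower panel, percentage of control (blue) and lactate (orange) peaks that are shared, with 95% Wilson intervals. All 20 autosomes lie between −0.51 and −0.33 and X is at −0.16; chromosome Y, with 5 and 12 peaks, is not drawn.

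Within chromosomes the lists rose and fell together. Over 2462 windows of 1000000 bp with a peak in either list, peak numbers had a Pearson r of 0.94, a description of windows that share gene content and mappability. The lactate list was the shorter one in 70.6% of them and the longer one in 22.9%. Among the 1747 windows with 20 peaks or more over both lists, 193 (11.05%) had more lactate peaks. The most uneven of these were picked by their ratio after the values were seen. The window on chromosome 19 from 2000001 to 3000000 held 20 control and 4 lactate peaks, and that on chromosome 18 from 7000001 to 8000000 held 19 and 4. On chromosome 8 from 105000001 to 106000000 there were 7 control and 15 lactate peaks. The first window of chromosome 15 held 14 and 28, and the first of chromosome 3 held 9 and 18.

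The other 2 marks of the series, H4K8la and H4K16la, were read as measures that the classes did not use. A peak of at least 1 of their 4 libraries lay at 88.7% (88.3 to 89.2) of the shared control peaks, 88.4% (88.0 to 88.9) of the shared lactate peaks, 47.2% (46.7 to 47.7) of the control-only and 38.1% (37.5 to 38.7) of the lactate-only peaks. All 4 libraries had a peak at 32.5%, 31.8%, 3.46% and 1.78%. Control-only H3K9la peaks were found in the lactate libraries of the other marks too, 15.9% in H4K8la lactate and 23.7% in H4K16la lactate, beside 27.2% in H4K8la control and 16.4% in H4K16la control. For lactate-only peaks the shares were 11.9% and 20.4% in the lactate libraries and 17.4% and 12.1% in the control libraries, in the same order. In both classes H4K8la control stood above H4K8la lactate and H4K16la lactate above H4K16la control. That order also holds for the lengths of these lists, 61347 and 42787 for H4K8la and 40681 and 62563 for H4K16la. Read by condition, 15.3% of the control-only peaks lay at a peak of a control library and of no lactate library, and 13.1% the reverse. Of the lactate-only peaks, 14.0% lay at a peak of a lactate library and of no control library, and 11.2% the reverse. Shared control peaks tilted to the control libraries too, with 12.4% against 9.40%, as did shared lactate peaks, with 12.8% against 9.68%.

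The same measure was taken at −log10 q of at least 10. Of the 45, 10 (22.2%, 12.5 to 36.3) had a peak in a lactate library of another mark and in no control library, and 2 (4.44%, 1.23 to 14.8) the reverse. Of the 533 control-only peaks, 92 (17.3%, 14.3 to 20.7) had a peak in a control library and in no lactate library, and 52 (9.76%, 7.52 to 12.6) the reverse. Strong shared control peaks tilted the same way, with 4.62% (3.95 to 5.41) and 1.94% (1.513 to 2.47), so the tilt to control libraries was not limited to control-only peaks. No library of the other marks had a peak at 39 of the 533 and at 4 of the 45. For shared peaks above the same threshold it was 31 of 3202 in control and 5 of 1079 with lactate. Strength above the threshold was not matched between the classes.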

How the data were processed

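The tools named in the submitters' processing notes are MACS2, Bowtie2, cutadapt, deepTools and FastQC, with build rn7. Their versions, settings and any use of the IgG control in peak calling are not stated. Each library has its own deposited peak list. The authors' fold column is a ratio of summit pileup to local background, their −log10 p and −log10 q columns are the caller's statistics (lowest −log10 q 1.301), and the deposited score is 10 times the −log10 q without decimals for 99.99% of the peaks; other columns are positions. Groups came from the titles and match the samples' treatment entry (none or 20 mM lactate), while the protocol text names lactate for both libraries.

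Pileup and local background were recovered by assuming fold = (pileup + 1) / (background + 1) and p as the upper Poisson tail, which held within 0.002 of −log10 p for all 61850 and 46597 peaks. The most frequent background was taken as genome-wide depth. This reading is inferred from the values. Shares have Wilson 95% intervals, ratios the interval of the lactate share. Overlap and recovery code was tested on simulated data. No test between conditions was possible.

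Regions named are the 5 strongest pairs (by the lower −log10 q), 5 isolated peaks per direction (10000 bp or more from the other list), 4 pairs per direction by fold ratio at −log10 q of at least 10, the widest peaks, the 3 longest runs per list and peaks facing most partners; chromosomes named are the 3 highest, the 3 lowest, X and Y. Windows were picked after their values were seen. The comparison and these rules were chosen with earlier results of these data known. Gene and sequence tables at hand describe another assembly, GRCr8, and were not used. Python 3.11.15, numpy 2.4.6, pandas 2.3.3, scipy 1.17.1 and matplotlib 3.10.9 were used.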

Additional observations from a re-analysis of the deposited data

How the results depend on the processing

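No paired analysis was possible because each group holds 1 library. The share of control peaks with a lactate partner was 34.3%, that of lactate peaks with a control partner 45.8%, the log2 ratio of peak numbers −0.41 and the median log2 ratio of fold at pairs 0.043. Merging peaks within 500 bp or keeping autosomes only moved none of these 4 beyond its counting interval. The shares were 30.8% and 41.0% with an overlap of 50% of the shorter peak, 33.6% and 44.6% with centres within 500 bp, and 21.8% and 28.9% with summits within 200 bp, where the fold ratio was 0.036. At −log10 q of at least 5 in both lists the 4 values were 29.2%, 59.7%, −1.03 and 0.091, and at 10 they were 18.0%, 60.0%, −1.73 and 0.082. At a fold of at least 4 they were 35.6%, 35.9%, −0.011 and −0.0091, so the fold ratio turned sign. With the control list cut to the lactate length they were 41.4%, 41.7%, 0 (by construction) and 0.014. With control scaled to the lactate depth they were 37.1%, 45.4%, −0.28 and 0.062 at −log10 p of at least 4, and 33.6%, 48.7%, −0.53 and 0.061 at 10. Settings added after seeing the data gave shares of 35.2% and 46.7% at −log10 p of at least 4 without scaling, and 27.7%, 58.0%, −1.07 and 0.078 at 10. Without peaks at the genome-wide background the shares were 36.5% and 48.5%. The cause of these moves was not tested, beyond the equal lengths in one setting.

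Shared peaks had the higher median width and −log10 q in both lists in all 15 settings, and the higher median fold in 15 of 15 for control and 11 of 15 for lactate. Lactate-only peaks had the wider spacing in all 15. Among chromosomes, X turned to 0.031 at a fold of at least 4, 0.48 with equal lengths and 0.017 with scaled depth at −log10 p of at least 4. Chromosome 8 turned to 0.082 and 0.068 in the first and second of these, and chromosome 17 to 0.028 in the first. Of the 42 named peaks, 42 kept their class with the 50% overlap, 40 with centres within 500 bp and 35 with summits within 200 bp. The depth, with a lowest summit pileup of 8 fragments in both libraries, limits what could be called.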
